A study of Homo sapiens with 26 samples.

Results

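Facilitative glucose transporters of the SLC2A family (GLUT proteins) were followed in human airway epithelial cells. Members were the rows of the count table with the symbols SLC2A1, SLC2A3, SLC2A6, SLC2A8, SLC2A10, SLC2A12 and SLC2A13, which are 7 of the 14 SLC2A genes and 7 of the 58735 genes in the table. The cells were 16HBE, an immortalised line of human bronchial epithelium, grown on Transwell inserts at 250000 cells per well, with 2 inserts pooled for each sample. WT cells were 16HBE14o- with WT CFTR, and CF cells were 16HBEge, a gene-edited derivative with DeltaF508 CFTR. CFTR is the anion channel that is mutated in cystic fibrosis. Each line received medium with 5.5 mM glucose (normal) or 17.5 mM glucose (high) over 7 days. The WT line gave 6 normal and 5 high glucose libraries, and the CF line gave 6 of each. Another 3 libraries came from 16HBE14o- cells in normal glucose that the labels describe as not polarized, although the growth and treatment text of these samples is the same as for the others. Each genotype is represented by 1 line, so genotype and line cannot be told apart. The labels do not state whether the libraries within a group are from separate cultures. P-values therefore measure only the spread between libraries, which may be technical.

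GLUT proteins let hexoses cross a membrane down their concentration gradient, without coupling to an ion, and hexokinases then trap the sugar by phosphorylation. In airway epithelium, uptake through such carriers followed by metabolism is thought to help keep glucose in the airway surface liquid low. The family is not uniform. SLC2A1 and SLC2A3 work mainly at the cell surface, SLC2A6, SLC2A8 and SLC2A10 lie largely on intracellular membranes, SLC2A10 also carries dehydroascorbic acid, and SLC2A13 is a proton-coupled carrier of myo-inositol.

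The promoters of 3 members are shown because these members moved in different ways: SLC2A1 fell in high glucose, SLC2A10 rose in high glucose, and SLC2A12 was the member that was higher in the not polarized cells. Each line gives the 250 bases before the RefSeq start on GRCh38.p14, 5′ to 3′ on the strand of the gene. The windows are chr1:42958869-42959118 (minus strand) for SLC2A1, chr20:46709399-46709648 (plus strand) for SLC2A10 and chr6:134052625-134052874 (minus strand) for SLC2A12. Capitals mark 5 short motifs on either strand: ACGTG and GCGTG (core letters bound by hypoxia-inducible factors), GGGCGG (the GC box), TATAAA (the TATA box) and CCAAT (the CCAAT box).
SLC2A1: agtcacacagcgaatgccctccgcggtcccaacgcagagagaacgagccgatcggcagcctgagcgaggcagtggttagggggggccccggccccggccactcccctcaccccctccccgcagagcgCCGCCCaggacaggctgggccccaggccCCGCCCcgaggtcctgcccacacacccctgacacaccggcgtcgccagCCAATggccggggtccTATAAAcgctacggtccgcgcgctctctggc
SLC2A10: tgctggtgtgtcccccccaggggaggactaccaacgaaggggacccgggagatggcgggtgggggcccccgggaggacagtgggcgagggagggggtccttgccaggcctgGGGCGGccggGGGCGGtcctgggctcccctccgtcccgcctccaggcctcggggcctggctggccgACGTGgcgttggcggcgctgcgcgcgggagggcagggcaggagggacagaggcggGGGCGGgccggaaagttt
SLC2A12: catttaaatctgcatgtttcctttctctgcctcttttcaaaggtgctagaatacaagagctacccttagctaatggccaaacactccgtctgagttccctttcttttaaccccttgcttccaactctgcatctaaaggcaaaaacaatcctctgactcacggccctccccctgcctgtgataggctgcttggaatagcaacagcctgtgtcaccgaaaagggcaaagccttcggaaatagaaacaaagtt
In the SLC2A1 window GGGCGG lay 123 and 95 bases before the start on the opposite strand, CCAAT 47 and TATAAA 31 bases before it. The SLC2A10 window held ACGTG 73 bases before the start and GGGCGG at 139, 129 and 18 bases. The SLC2A12 window, at 46.0% G and C against 72.4% for SLC2A1 and 76.8% for SLC2A10, held none of these letters. Among 35116 promoter windows of 250 bases, 18.5% held ACGTG, 32.2% GCGTG, 42.6% GGGCGG, 10.7% TATAAA and 32.0% CCAAT, so single matches are common. CACGTG, a 6-base E-box that contains ACGTG, was held by 6.3% of windows and, among the members with a window, by SLC2A13. Windows were found for 6 of the 7 members (not SLC2A3), and their RefSeq starts differ from the gene starts in the deposited annotation. The whole SLC2A1 window lies inside the deposited gene (42925375 to 42959176). The deposited starts of SLC2A10 and SLC2A12 fall within their windows. A match is a description of letters and not a binding site.

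Library totals ran from 14658319 to 20413839 counts, and all 7 members had enough counts to be tested in every comparison. All 5 epithelial markers (EPCAM, CDH1, KRT8, KRT18 and KRT19) were present, with a summed level of 4789 to 6444 CPM (counts scaled to sequencing depth) over the 26 libraries. Markers of secretory airway cells (SCGB1A1, SCGB3A1, MUC5AC, MUC5B) summed to at most 0.514 CPM, with MUC5AC at 0 throughout. Leukocyte markers summed to at most 2.13 CPM. Basal markers were KRT5, KRT14 and NGFR, at 1 CPM or more on average in the glucose groups (WT and CF, normal and high), and TP63, below it. They summed to 40.1 to 57.5 in WT, 51.7 to 108 in CF and 26.8 to 31.3 CPM in not polarized cells. Mean KRT5 was higher in CF cells (70.9 CPM in normal and 80.3 in high glucose, against 43.0 and 39.0 in WT). KRT14 was lower (1.36 and 1.67 against 3.36 and 4.25). NGFR (2.84 and 2.84 against 2.35 and 2.34) and TP63 (0.591 and 0.470 against 0.353 and 0.506) differed less. Ciliated cell markers summed to 11.5 to 15.4 in WT, 16.3 to 25.2 in CF and 8.89 to 11.2 CPM in not polarized cells. Mean CAPS was higher in CF cells (13.3 CPM in normal and 15.5 in high glucose, against 5.57 and 5.23 in WT). TPPP3 was higher as well (1.31 and 1.67 against 1.09 and 1.05). DNAH5 (4.57 and 5.15 against 6.09 and 6.23) and FOXJ1 (0.216 and 0.261 against 0.471 and 0.408) were lower. FOXJ1 was thus below 1 CPM on average in the glucose groups, and it stood at 1.64 CPM in not polarized cells, where the ciliated sum was lowest. Of the endothelial markers CDH5 alone reached 1 CPM on average. Endothelial sums were 11.4 to 16.2 in WT, 18.7 to 27.4 in CF and 12.1 to 13.9 CPM in not polarized cells. Of the fibroblast markers COL1A1 alone reached 1 CPM, with sums of 26.5 to 43.3, 15.3 to 29.5 and 13.1 to 14.1 CPM in that order. Of the ionocyte markers FOXI1 alone did, with sums of 6.34 to 14.2, 4.37 to 9.19 and 12.6 to 14.6 CPM. These sums moved with the line or the culture, though the markers within a list did not all move the same way. The part of these markers in the differences below was not tested. Libraries numbered 1 to 3 stood apart from those numbered 4 to 6 in several members, so results that depend on these sets are given with each set alone. The labels do not say what the 2 sets are. WT cells in high glucose have only 2 libraries in the set numbered 4 to 6.

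Per length, SLC2A3 and SLC2A1 made up most of the transporter RNA in the glucose groups, and SLC2A1 alone did so in the not polarized cells. Levels between genes were compared in FPKM, which scale fragments to gene length and sequencing depth. Mean SLC2A3 in WT cells was 199 ± 16.4 FPKM (SD, n = 6) in normal and 145 ± 15.8 (n = 5) in high glucose. It was 277 ± 20.9 (n = 6) and 182 ± 11.4 (n = 6) in the CF line and 19.1 ± 0.322 (n = 3) in the not polarized cells. Mean SLC2A1 was 126 ± 7.78, 96.3 ± 5.32, 149.8 ± 24.4, 103 ± 7.84 and 80.4 ± 0.592 FPKM in the same order. SLC2A3 was above SLC2A1 in all 23 libraries of the glucose groups, and SLC2A1 was above SLC2A3 in all 3 not polarized libraries.

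SLC2A12, SLC2A6 and SLC2A10 formed a middle tier, between 4.15 and 14.6 FPKM as group means. SLC2A6 and SLC2A12 did not separate in WT cells: their libraries overlapped, with 11.4 and 10.6 FPKM in normal and 12.0 and 12.3 FPKM in high glucose. In the CF line with high glucose SLC2A12 (12.1 FPKM) and SLC2A10 (11.1 FPKM) overlapped as well, whereas in the other 4 groups SLC2A10 was below both. SLC2A8 had group means of 1.62 to 2.92 FPKM, and SLC2A13 was lowest in every group at 0.183 to 0.230 FPKM. Summed over the members, the level was 355 ± 16.6 FPKM in WT cells with normal and 276 ± 19.9 with high glucose, 462 ± 45.9 and 326 ± 19.5 in the CF line, and 126 ± 1.13 in the not polarized cells. SLC2A3 held 56.0%, 52.7%, 60.1%, 55.9% and 15.2% of this sum in that order, and SLC2A1 held 35.4%, 35.0%, 32.3%, 31.5% and 64.0%. The 7 members held a mean of 97.6% to 99.4% of the FPKM of all SLC2A genes in each group. In bulk RNA, fewer cells that express a gene and less RNA per cell cannot be told apart.

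**Figure D1:**
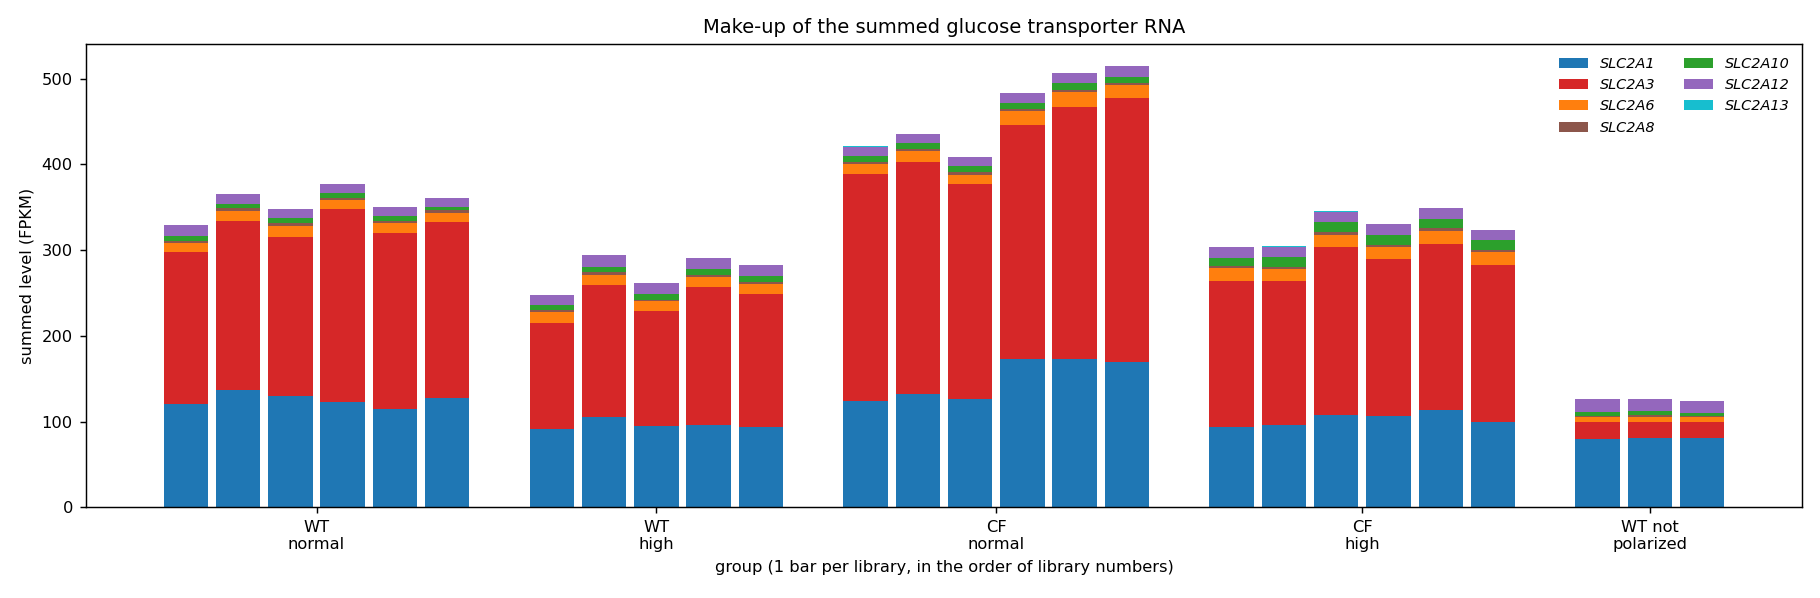
Summed FPKM of the 7 transporters in each of the 26 libraries (1 bar per library, y axis from 0), coloured by gene. SLC2A3 (red) and SLC2A1 (blue) fill most of every bar in the glucose groups. The sum is highest in the CF line with normal glucose (462 ± 45.9 FPKM). The red part shrinks to 15.2% in the not polarized cells.

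High glucose lowered the RNA of both surface carriers and raised that of SLC2A10 in both lines. In WT cells 1 of the 7 members was called higher and 2 lower (edgeR, adjusted p under 0.05), where 2.96% of all 16338 genes tested were called, 1.49% higher and 1.47% lower. In CF cells again 1 was called higher and 2 lower, where 8.41% of all genes were called, 4.27% higher and 4.14% lower. The median log2 fold change of the members was 0.08 in each line, beside 0.00051 in WT and -3.6e-05 in CF over all genes tested.

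SLC2A3 (GLUT3, ENSG00000059804, GRCh38 chromosome 12, 7919230 to 7936275, minus strand) is a high-affinity carrier best known from neurons. In WT cells it stood at 1095, 1246 and 1400.2 CPM (lowest, median and highest library) in normal glucose, and at 764, 833, 951, 968 and 1001 CPM in the 5 high glucose libraries. The CF line had 1542, 1673 and 1904 CPM with normal and 1035, 1134 and 1215 CPM with high glucose. In each line every high glucose library lay below every normal glucose library. SLC2A3 was higher in libraries 4 to 6 than in libraries 1 to 3 in WT cells, without overlap. The ranges were 1276 to 1400.2 against 1095 to 1217 CPM in normal and 968 to 1001 against 764 to 951 CPM in high glucose. CF cells in normal glucose had 1680 to 1904 against 1542 to 1666 CPM, and in high glucose the sets overlapped. SLC2A3 fell by 0.45 on the log2 scale in WT (SE 0.07, adjusted p = 0.00074) and by 0.60 in CF cells (SE 0.07, adjusted p = 5.06e-06), which is 1.37-fold and 1.51-fold lower. SLC2A14, a near-identical neighbour of SLC2A3, had group means of 0.403 to 2.21 CPM, and reads of the 2 genes may have been split between them by the counting.

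SLC2A1 (GLUT1, ENSG00000117394, chromosome 1, 42925375 to 42959176, minus strand) is the basal glucose carrier of most cells. It stood at 552, 600.3 and 651 CPM (lowest, median and highest) in WT cells in normal glucose and at 431, 450.4, 453, 461 and 497 CPM in high glucose. The CF line with normal glucose had 586, 599 and 626 CPM in libraries 1 to 3 and 807, 815 and 817 CPM in libraries 4 to 6, and with high glucose it had 443, 489 and 538 CPM. The groups did not overlap in either line. SLC2A1 fell by 0.38 in WT (SE 0.08, adjusted p = 0.0102, 1.30-fold lower) and by 0.54 in CF cells (SE 0.08, adjusted p = 8.11e-05, 1.45-fold lower) on the log2 scale. In CF cells the fall was -0.36 (adjusted p = 0.00141) in libraries 1 to 3 alone and -0.70 (adjusted p = 8.29e-12) in libraries 4 to 6 alone. The difference between these sets was -0.33 ± 0.09 SE and did not pass the threshold (adjusted p = 0.0612, where 1.18% of all genes were called). The antisense gene SLC2A1-AS1 shares 128 bases with SLC2A1, and it held 281 counts in all libraries against 241582 for SLC2A1.

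SLC2A10 (GLUT10, ENSG00000197496, chromosome 20, 46709487 to 46736347, plus strand) moves glucose and dehydroascorbic acid, and loss of it in people causes arterial tortuosity syndrome. In WT cells it stood at 22.5, 28.1 and 30.8 CPM (lowest, median and highest) in normal and at 30.1, 33.3, 34.8, 35.2 and 35.6 CPM in high glucose. In CF cells it stood at 35.0, 36.9 and 38.8 CPM in normal and at 46.9, 57.1 and 60.4 CPM in high glucose. The groups touched in WT, where 1 high glucose library lay within the normal glucose range, and were well apart in CF cells. SLC2A10 rose by 0.30 in WT (SE 0.07, adjusted p = 0.0248, 1.23-fold) and by 0.59 in CF cells (SE 0.07, adjusted p = 7.05e-06, 1.51-fold) on the log2 scale. The WT call was near the threshold and was lost without normal glucose library 6 (adjusted p = 0.0612) or without high glucose library 3 (0.072), 4 (0.051) or 5 (0.0576). It was also lost with no low-count filter (0.0659), with only the 2 WT groups in the fit (0.0705) and in libraries 1 to 3 alone (log2 0.21, 0.298). With a term for the library sets in the fit the adjusted p was 0.005.

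**Figure D2:**
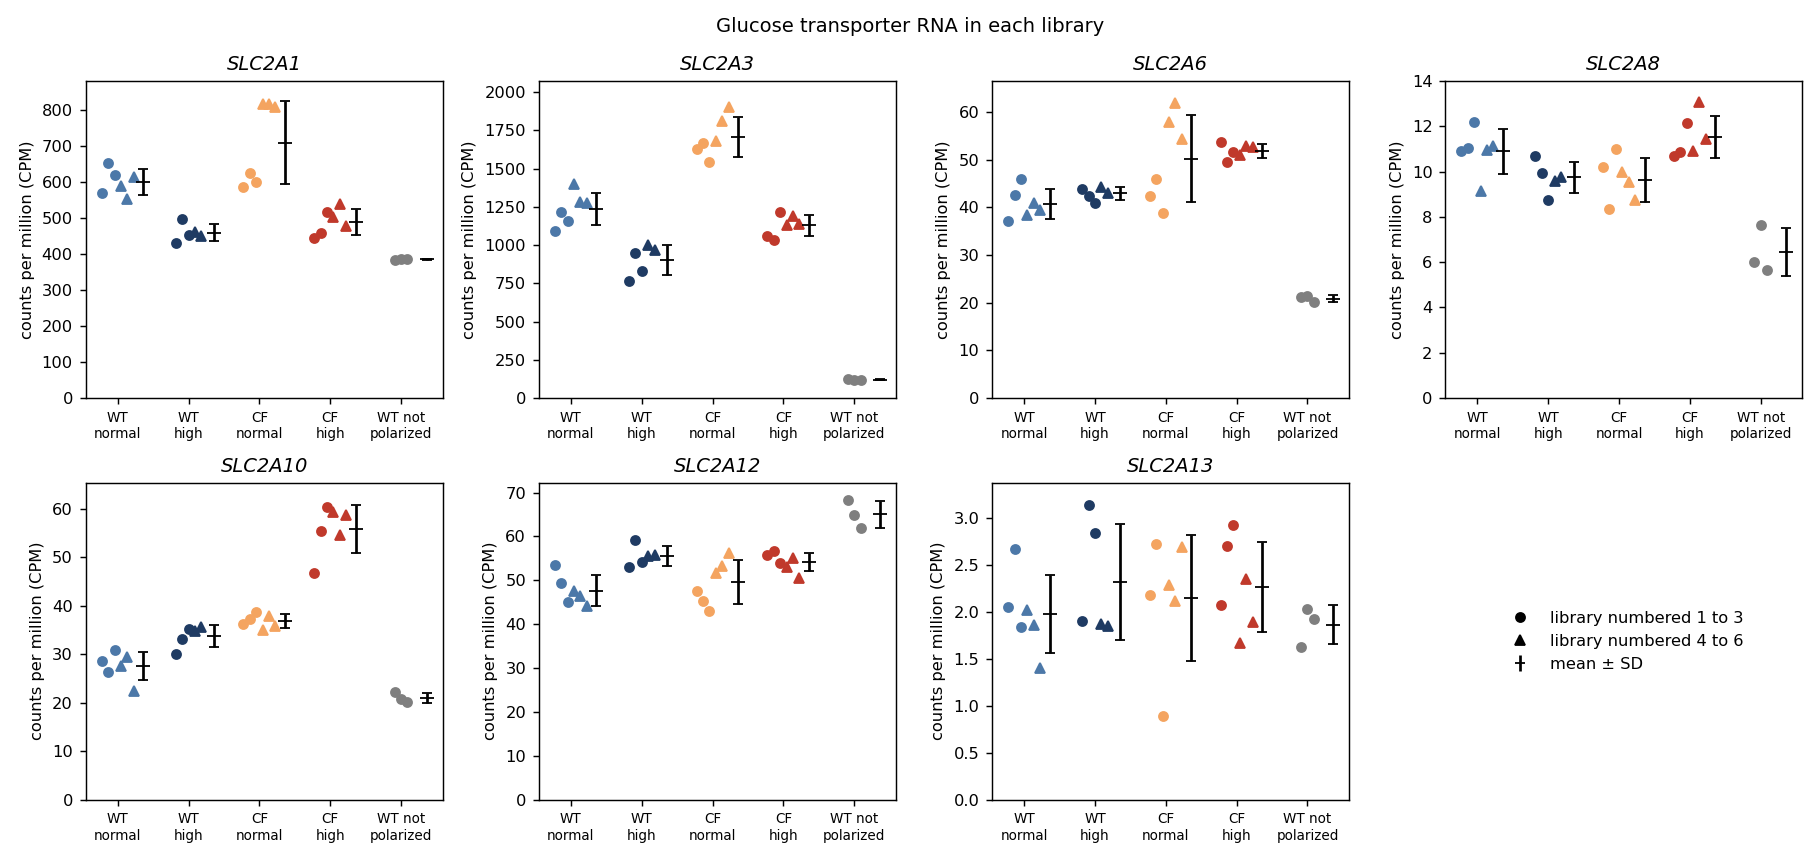
Level of each transporter in each library, in CPM on a linear axis from 0, by group, with circles for libraries numbered 1 to 3, triangles for those numbered 4 to 6 and a black bar for mean ± SD. SLC2A1 and SLC2A3 are lower in high glucose in both lines, SLC2A10 reaches 46.9 to 60.4 CPM in CF cells in high glucose, and SLC2A3 stands at 118 to 122 CPM in the not polarized cells.

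The other 4 members were not called for glucose in either line over all libraries. SLC2A12 (GLUT12, ENSG00000146411, chromosome 6, 133988697 to 134052636, minus strand), a glucose carrier described in insulin-responsive tissue, stood at 44.1, 47.0 and 53.5 CPM (lowest, median and highest) in WT cells in normal and at 53.0, 54.2, 55.5, 55.8 and 59.1 CPM in high glucose. The CF line had 43.1, 49.7 and 56.2 CPM with normal and 50.6, 54.5 and 56.6 CPM with high glucose. The WT groups overlapped by 1 normal glucose library, and the log2 difference of 0.22 (95% interval 0.09 to 0.36) had an adjusted p of 0.0629. This was past the threshold in 5 of 23 alternatives: with a term for the library sets (adjusted p = 0.0163), in libraries 4 to 6 alone (0.0209), with DESeq2 (0.0258), with a replicate block (0.031) and without WT normal glucose library 1 (0.0314). In CF cells the difference was 0.13 (-0.0023 to 0.26, adjusted p = 0.244), and 0.29 (adjusted p = 0.0248) in libraries 1 to 3 alone. TBPL1, on the other strand, shares 1736 bases with SLC2A12 and held 11097 counts against 23655. The strand setting of the counting is not given, so reads there cannot be assigned with certainty.

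SLC2A8 (GLUT8, ENSG00000136856, chromosome 9, 127397138 to 127408424, plus strand) is an intracellular hexose carrier. It stood at 9.13, 11.0 and 12.2 CPM (lowest, median and highest) in WT cells in normal and at 8.74, 9.58, 9.77, 9.93 and 10.7 CPM in high glucose. In CF cells it stood at 8.36, 9.77 and 11.0 CPM in normal and at 10.7, 11.2 and 13.1 CPM in high glucose. Groups overlapped in both lines. The log2 difference was -0.16 (95% interval -0.35 to 0.03, adjusted p = 0.423) in WT and 0.25 (0.07 to 0.43, adjusted p = 0.0735) in CF cells, where the call was gained in 2 of 24 alternatives, without CF normal glucose library 3 (adjusted p = 0.0398) and with the set term (0.0476).

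SLC2A6 (GLUT6, ENSG00000160326, chromosome 9, 133471095 to 133479137, minus strand) is a carrier of lysosomal membranes. It stood at 37.2, 40.2 and 45.9 CPM (lowest, median and highest) in WT cells in normal and at 40.9, 42.5, 43.0, 43.8 and 44.4 CPM in high glucose. In the CF line with normal glucose, libraries 1 to 3 had 38.9, 42.4 and 46.0 CPM and libraries 4 to 6 had 54.3, 57.9 and 61.9 CPM, and with high glucose the level was 49.5, 52.1 and 53.7 CPM. The high glucose libraries of the CF cells thus lay between the 2 sets of normal glucose libraries. The glucose difference was 0.08 (95% interval -0.10 to 0.26) in WT and 0.04 (-0.13 to 0.21) in CF cells on the log2 scale. In CF cells it was 0.27 (adjusted p = 0.0434) in libraries 1 to 3 alone and -0.17 (0.114) in libraries 4 to 6 alone. The difference between the sets passed the threshold (-0.43 ± 0.11 SE, adjusted p = 0.0284). The test of that difference was added after the data were seen and called 1.18% of all genes.

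SLC2A13 (HMIT, ENSG00000151229, chromosome 12, 39755021 to 40106089, minus strand), the myo-inositol carrier, was the least abundant member, with 15 to 52 counts per library. It stood at 1.40, 1.94 and 2.67 CPM (lowest, median and highest) in WT cells in normal and at 1.85, 1.87, 1.91, 2.84 and 3.14 CPM in high glucose. In CF cells it stood at 0.893, 2.24 and 2.73 CPM in normal and at 1.67, 2.21 and 2.92 CPM in high glucose. All groups overlapped. A glucose difference was not detectable at this depth, with log2 0.23 (95% interval -0.24 to 0.70) in WT and 0.08 (-0.38 to 0.53) in CF cells.

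The response to glucose was then compared between the lines through the interaction term. None of the 7 members was called by edgeR or by DESeq2, and 2 had an unadjusted p under 0.05 in edgeR; over all genes 0.0367% were called, 0.0122% with a higher and 0.0245% with a lower response in CF cells. The median of the members was -0.10 beside -0.00075 over all genes. The members with the low unadjusted p were SLC2A8, whose response was higher in CF cells by 0.41 on the log2 scale (95% interval 0.16 to 0.67, adjusted p = 0.321), and SLC2A10, by 0.30 (0.09 to 0.51, adjusted p = 0.447). For SLC2A3 the difference was -0.15 (-0.35 to 0.06) and for SLC2A1 -0.16 (-0.39 to 0.08), so a moderately larger fall in CF cells is within the interval. For SLC2A1 it was 0.05 (adjusted p = 0.926) in libraries 1 to 3 alone and -0.35 (adjusted p = 0.0159) in libraries 4 to 6 alone. The latter value rests on 2 WT libraries in high glucose. SLC2A6 (-0.03, -0.28 to 0.21), SLC2A12 (-0.10, -0.28 to 0.09) and SLC2A13 (-0.15, -0.80 to 0.50) had intervals across 0.

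**Figure D3:**
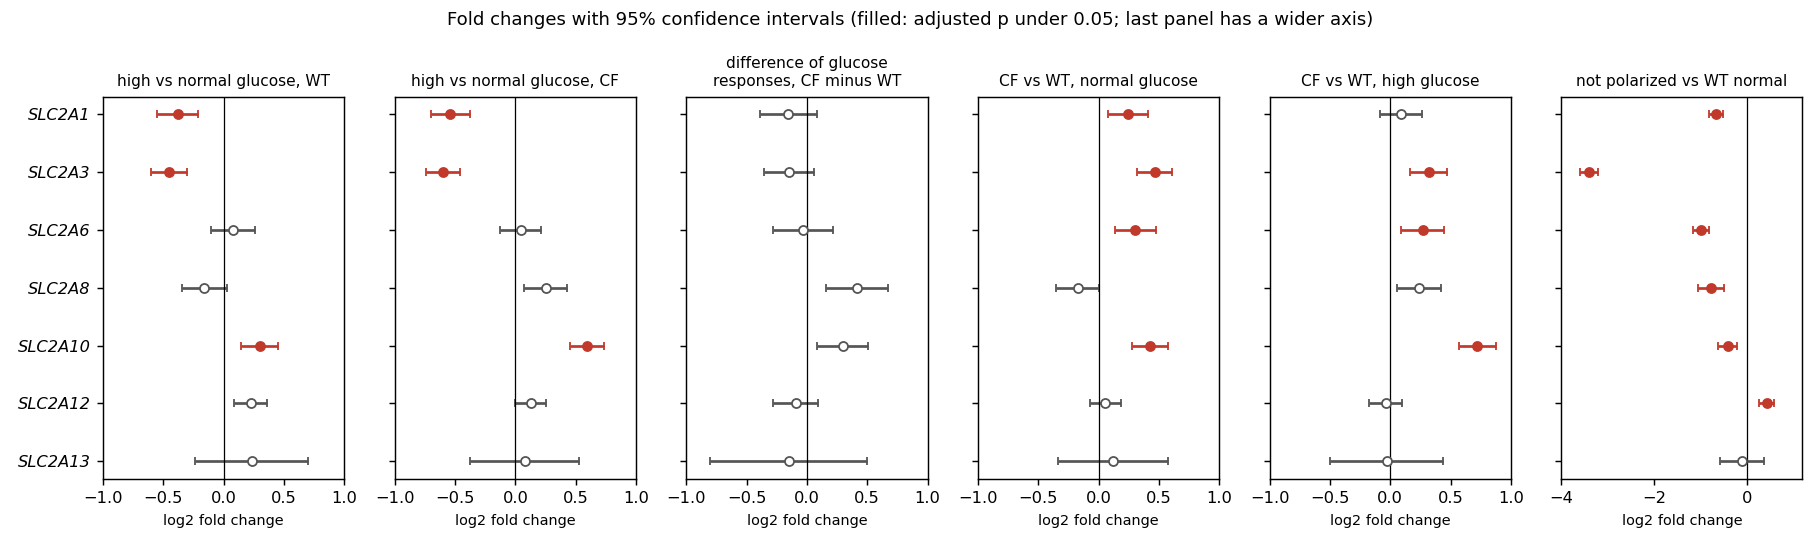
Log2 fold change of each transporter in the 6 comparisons, with 95% intervals, filled where the adjusted p was under 0.05 (the axis of the last panel is wider). SLC2A1 and SLC2A3 lie left of 0 for glucose in both lines and SLC2A10 right of 0, no point is filled in the panel on the difference of responses, and SLC2A3 reaches -3.40 in the not polarized cells.

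Next, the CF line was compared with the WT line at each glucose level. These comparisons share their libraries with the glucose comparisons, so their values are set side by side without a test of overlap. In normal glucose edgeR called 4 members higher in CF cells and none lower, and none of the members with a lower level had an unadjusted p under 0.05. Of all genes tested 24.4% were called, 11.4% higher and 13.0% lower, and the median was 0.24 for the members and 0.0040 for all genes. In high glucose 3 members were called higher and none lower, and the 4 with an unadjusted p under 0.05 were all on the higher side. Of all genes 19.9% were called there, 9.35% higher and 10.6% lower, with medians of 0.24 and 0.0074.

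SLC2A3 and SLC2A10 were higher in CF cells at both glucose levels, and for neither gene did the libraries of the 2 lines overlap. The log2 difference of SLC2A3 was 0.46 (SE 0.07, adjusted p = 9.35e-06, 1.38-fold) in normal and 0.32 (SE 0.07, adjusted p = 0.00196, 1.25-fold) in high glucose. That of SLC2A10 was 0.43 (SE 0.07, adjusted p = 4.45e-05, 1.34-fold) in normal and 0.72 (SE 0.07, adjusted p = 2.95e-08, 1.65-fold) in high glucose. Within the sets of libraries, SLC2A3 differed by 0.48 and 0.46 and SLC2A10 by 0.39 and 0.46 in normal glucose for libraries 1 to 3 and 4 to 6. In high glucose SLC2A10 differed by 0.71 and 0.70 in these sets, and SLC2A3 by 0.37 (adjusted p = 0.000573) and 0.22 (adjusted p = 0.0082). The lowest SLC2A10 value in CF cells in normal glucose (35.0 CPM) fell within the range of WT cells in high glucose (30.1 to 35.6 CPM).

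SLC2A1 and SLC2A6 were higher in the CF line with normal glucose over all libraries, with log2 differences of 0.24 (SE 0.08, adjusted p = 0.0248) and 0.30 (SE 0.08, adjusted p = 0.00757), and for both the libraries of the lines overlapped. For both, the difference was carried by libraries 4 to 6. SLC2A1 differed by -0.02 (adjusted p = 0.859) in libraries 1 to 3, with means of 603 ± 20.3 CPM in CF and 613 ± 41.8 CPM in WT cells (SD, n = 3 each). In libraries 4 to 6 it differed by 0.49 (adjusted p = 3.65e-09), with means of 813 ± 5.40 and 584 ± 30.3 CPM. SLC2A6 differed by 0.02 (adjusted p = 0.924) in libraries 1 to 3 and by 0.56 (adjusted p = 2.27e-08) in libraries 4 to 6. The difference between the sets was 0.50 ± 0.09 SE for SLC2A1 (adjusted p = 0.00066) and 0.53 ± 0.11 SE for SLC2A6 (adjusted p = 0.00234), in a test added after these values were seen, which called 3.01% of all genes. The overall SLC2A1 call was lost without WT library 5 (adjusted p = 0.0517) or without CF library 4 (0.0658), 5 (0.0652) or 6 (0.0621), with only the 2 groups in the fit (0.0737) and on unfiltered FPKM (0.0743), and was kept with the set term (0.00663).

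**Figure D4:**
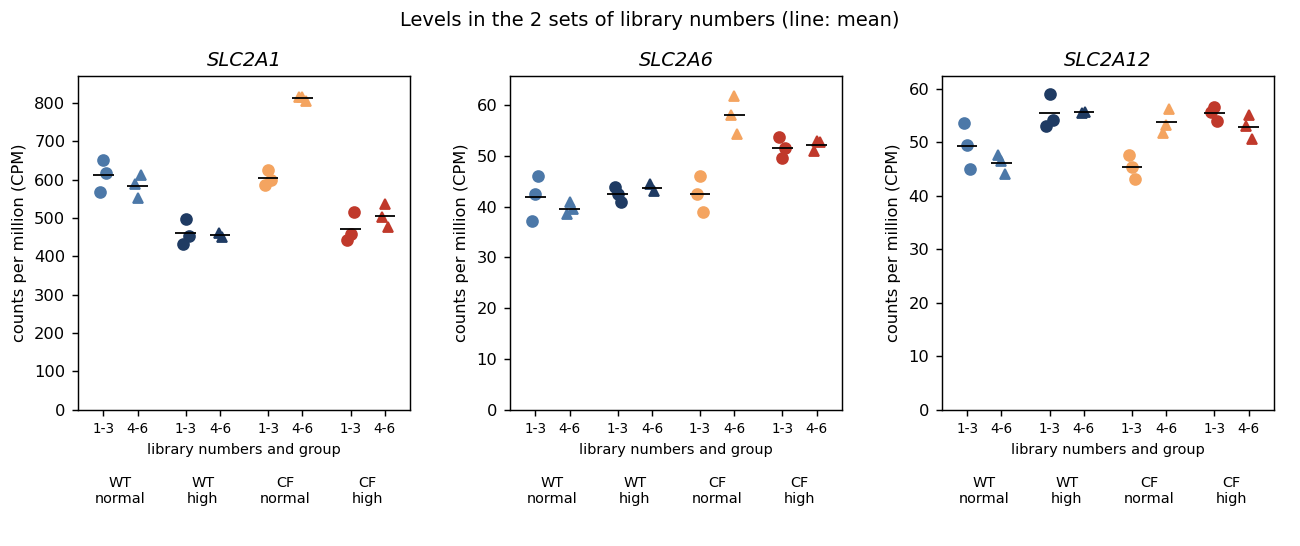
CPM of SLC2A1, SLC2A6 and SLC2A12 in libraries numbered 1 to 3 (circles) and 4 to 6 (triangles) of the 4 glucose groups, with the mean of each set as a line and the axis from 0. The sets lie apart in the CF line with normal glucose, at means of 603 and 813 CPM for SLC2A1 and 42.4 and 58.0 CPM for SLC2A6, and close together in the other groups.

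In high glucose SLC2A1 did not pass the threshold between the lines (log2 0.09, 95% interval -0.08 to 0.26, adjusted p = 0.546). SLC2A6 was higher in CF cells by 0.27 (SE 0.09, adjusted p = 0.0281), every CF library lay above every WT library, and the difference was 0.27 and 0.25 in the 2 sets of libraries. Its adjusted p rose to 0.0565, 0.0761 or 0.0608 without WT high glucose library 2, 3 or 5, to 0.053 or 0.0582 without CF library 1 or 5, and to 0.0593 on unfiltered FPKM. SLC2A8 was not called in normal glucose (-0.17, 95% interval -0.35 to 0.0045, adjusted p = 0.161) or in high glucose (0.24, 0.05 to 0.42, adjusted p = 0.0642), although in high glucose the libraries of the lines did not overlap. In high glucose it was called in 4 of 23 alternatives: without WT library 1 (adjusted p = 0.0388), with limma on log2 FPKM plus 1 (0.0427) or 0.1 (0.0467), and with the set term (0.0445). SLC2A12 differed by 0.06 (-0.07 to 0.19) and -0.04 (-0.17 to 0.10), and SLC2A13 by 0.12 (-0.33 to 0.58) and -0.03 (-0.50 to 0.44), in normal and high glucose. For SLC2A12 in normal glucose the difference was -0.12 (adjusted p = 0.306) in libraries 1 to 3 and 0.23 (adjusted p = 0.00813) in libraries 4 to 6, and the difference between the sets missed the threshold (0.34 ± 0.10 SE, adjusted p = 0.0518).

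The not polarized WT cells had much less SLC2A3 RNA than WT cells in normal glucose, less SLC2A1, SLC2A6, SLC2A8 and SLC2A10, and more SLC2A12. Of the 7 members 1 was called higher and 5 lower in the fit of these 9 libraries, where 50.0% of all 16105 genes tested were called, 24.0% higher and 26% lower. The median was -0.66 for the members and -0.024 for all genes. Since so many genes were called, the sizes rather than the count are given for each member. The not polarized libraries lay close together for the 2 abundant members. Their SD was 1.90 CPM for SLC2A1 and 2.25 CPM for SLC2A3, against 36.2 and 106 CPM in WT cells in normal glucose. For SLC2A8 it was 1.07 against 0.992 CPM. The labels do not state whether they are separate cultures, so the p-values may rest on technical spread.

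SLC2A3 stood at 118, 119 and 122 CPM in the not polarized cells, against 1095 to 1400.2 CPM in WT cells in normal glucose. This was the largest difference among the members, -3.40 on the log2 scale (SE 0.09, adjusted p = 4.99e-12, 10.5-fold lower), and its p ranked 4 among all genes tested. It was -3.30 against libraries 1 to 3 alone. SLC2A6 stood at 20.1, 21.2 and 21.3 CPM, a log2 difference of -0.99 (SE 0.08, adjusted p = 3.86e-07, 1.98-fold lower). SLC2A8 stood at 5.64, 6.02 and 7.66 CPM (-0.78, SE 0.13, adjusted p = 0.000217). For each of these genes all 3 libraries lay below every WT library in normal glucose.

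SLC2A1 stood at 383, 385 and 386 CPM in the not polarized cells (-0.66, SE 0.07, adjusted p = 2.6e-06, 1.58-fold lower), below all libraries of the glucose groups. SLC2A10 stood at 20.2, 20.7 and 22.2 CPM (-0.41, SE 0.10, adjusted p = 0.00311), just under the lowest WT library at 22.5 CPM. SLC2A12 stood at 61.9, 65.0 and 68.2 CPM (0.43, SE 0.07, adjusted p = 0.000315, 1.34-fold higher), above every library of the other 4 groups. SLC2A13 stood at 1.63, 1.92 and 2.04 CPM and did not pass the threshold (-0.10, 95% interval -0.58 to 0.38). As a result of these unequal differences, the ratio of SLC2A3 to SLC2A1 in FPKM was 0.238 ± 0.00566 (SD, n = 3) in the not polarized cells and 1.59 ± 0.174 (n = 6) in WT cells in normal glucose.

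Regulators and partners of glucose uptake were read from the same fits. TXNIP, an arrestin that is induced by glucose and lowers glucose uptake at the membrane, had means of 292 ± 51.6 CPM in normal and 669.9 ± 47.2 CPM in high glucose in WT cells, and of 251 ± 83.0 and 953 ± 42.4 CPM in CF cells. HK2, a hexokinase, had means of 388 ± 64.6 and 206 ± 28.4 CPM in WT and of 683 ± 165 and 235 ± 34.2 CPM in CF cells. TXNIP and its relative ARRDC4 were the 2 of 12 genes of transporter trafficking and turnover that rose with glucose in each line, and none of the 12 fell, where 1.49% of all genes were called higher in WT and 4.27% in CF cells. In CF cells in normal glucose, the group in which the library sets of SLC2A1 lay apart, HK2 stood at 502, 539 and 571 CPM in libraries 1 to 3 and at 765, 862 and 862 CPM in libraries 4 to 6. TXNIP stood there at 280, 316 and 369.5 CPM and at 163, 189 and 190.1 CPM, lower in the set where SLC2A1 and HK2 were higher. That group was chosen because its SLC2A1 sets lay apart, and a cause was not tested. The responses of TXNIP (log2 difference 0.72, 95% interval 0.25 to 1.19) and HK2 (-0.63, -1.04 to -0.22) were not called as different between the lines (adjusted p = 0.364 and 0.358). In the not polarized cells both TXNIP (-3.96) and HK2 (-1.63) were lower on the log2 scale, with adjusted p of 4.63e-10 and 2.92e-07.

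Of the other SLC2A genes, SLC2A11 had group means of 1.05 to 2.50 FPKM, above SLC2A13 in every group and above SLC2A8 in the not polarized cells, and the rest had group means of at most 0.522 FPKM. Of 7 listed, 5 were tested, and none was called for glucose in either line, with 4 at an unadjusted p under 0.05 in WT and 0 in CF cells. SLC2A5, a fructose carrier, and SLC2A9, a urate carrier, were higher in the CF line with normal glucose (log2 1.35 and 1.34, adjusted p = 7.37e-06 and 1.02e-05), and SLC2A4, the insulin-regulated carrier, was lower (-0.93, adjusted p = 0.0259). In high glucose SLC2A5 (1.82), SLC2A9 (0.74) and SLC2A11 (0.46) were higher in CF cells. In the not polarized cells SLC2A11 (0.92) and SLC2A9 (0.89) were higher, and SLC2A5, SLC2A14 and SLC2A4 were lower. SLC2A9 and SLC2A4 are named there although the rule for naming genes did not take them. SLC2A5 had 0 to 2 counts per not polarized library and 8 to 18 per WT library in normal glucose. SLC2A2, the low-affinity carrier of liver and pancreatic islets, had 0 counts in all 26 libraries, and a count of 0 allows up to 0.147 to 0.205 CPM depending on the library. The sodium-coupled carrier SLC5A1 had 0 to 7 counts per library.

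Among sodium-coupled and SWEET sugar carriers, SLC5A3 and SLC50A1 were the 2 of 8 with enough counts. Neither was called for glucose or between the lines, with 1 unadjusted p under 0.05 (SLC50A1, glucose in CF cells), and both were lower in the not polarized cells (-0.38 and -0.28). Of 5 tested hexose kinases, HK2 was the gene that fell with glucose in both lines (-0.91 in WT and -1.54 in CF), and KHK, which phosphorylates fructose, rose in CF cells (0.56). Between the lines in normal glucose HK2 and HK1 were higher and KHK lower in CF cells, and in high glucose none of the 5 was called or had an unadjusted p under 0.05. HK2, ADPGK and HK1 were lower in the not polarized cells. KHK is named between the lines although the rule did not take it there.

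Of 12 trafficking genes, 1 was higher and 1 lower in the CF line with normal glucose, where 11.4% and 13.0% of all genes were. These were TBC1D4, a Rab regulator of GLUT traffic (log2 0.56, adjusted p = 0.00573), and ARRDC4 (-0.45, 0.0168). With high glucose 1 was higher and 1 lower, where 9.35% and 10.6% of all genes were. These were TXNIP (0.50, adjusted p = 0.03) and SNX27, which recycles SLC2A1 protein to the surface (-0.22, 0.0475). Libraries of the lines overlapped for all of these genes but TXNIP. In the not polarized cells TXNIP and ARRDC4 were lower and 5 were higher, where 24.0% of all genes were called higher: VPS26A (0.46) by the rule and TBC1D4, SNX27, TBC1D5 and TBC1D1 named after their values were seen. For myo-inositol handling, beside SLC2A13, 4 of 6 genes were tested. None was called for glucose, with 0 and 2 at an unadjusted p under 0.05 in WT and CF cells; IMPA2 was lower in the CF line with normal glucose (-0.48), and ISYNA1 (-0.62) and SLC5A3 (-0.38) were lower in the not polarized cells.

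Genes that transport or use ascorbate, beside SLC2A10, were not called for glucose (0 of 6 in each line, with 0 and 1 at an unadjusted p under 0.05). In CF cells in normal glucose, where 11.4% of all genes were called higher, 5 of the 6 were higher: the procollagen hydroxylases PLOD1 (0.44), PLOD2 (0.30), P4HA1 (0.54) and P4HA2 (0.36) and the ascorbate carrier SLC23A2 (0.45). In high glucose, where 9.35% were, 4 were higher, PLOD1, P4HA1, P4HA2 and SLC23A2. All 6 were lower in the not polarized cells, where 26% of all genes were. The difference was largest for P4HA1 (-2.11), and was -1.52 for PLOD2, -1.26 for P4HA2 and -1.23 for PLOD1, the 3 with the lowest adjusted p. P4HA1 and P4HA2 in normal glucose, SLC23A2 in high glucose and P4HA1 in the not polarized cells were named after their values were seen.

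Genes with the pattern most like each member were taken by Pearson r of log2 CPM over the 26 libraries, among the 10701 protein-coding genes whose mean reached 5 CPM. The points share groups and library sets, so r describes these libraries only. HK2 was most like SLC2A1 (r = 0.96, and 0.94 over the 23 glucose libraries), followed by the BMP antagonist NOG and by VASN. NOCT (r = 0.98), NOTCH3 and GALNT2 were most like SLC2A3, whose range over the libraries is set by the not polarized cells. Without these 3 libraries r was 0.90 with NOCT, 0.82 with NOTCH3 and 0.83 with GALNT2. RHBDF2, P4HA2 and ACKR3 (r = 0.98, 0.98 and 0.97) were most like SLC2A6, and SEMA6B, SLC27A3 and RCN3 (0.91, 0.89 and 0.88) most like SLC2A8. Over the 23 glucose libraries r was 0.89, 0.89 and 0.85 for the SLC2A6 genes. For the SLC2A8 genes it was 0.73, 0.68 and 0.68 there. For SLC2A10 these were IL13RA1, MMP2 and ARSI (r = 0.94 each), and for SLC2A12 CD44, DAP3 and NT5E (0.91, 0.89 and 0.87). Over the 23 glucose libraries r was 0.92 for each of the SLC2A10 genes and 0.84, 0.80 and 0.81 for the SLC2A12 genes. The highest r for SLC2A13 was 0.67, with MASTL (0.71 over the 23 glucose libraries), followed by PRXL2B and PRKCD. Between members, SLC2A3 and SLC2A6 had the highest r over the 26 libraries (0.89), which was 0.32 over the 23 glucose libraries. SLC2A1 and SLC2A3 had r = 0.74 over the 26 and the highest r over the 23 (0.87). For SLC2A3 and SLC2A8 r was 0.74 over the 26 and -0.23 over the 23. The lowest r was that of SLC2A12 with SLC2A3, at -0.72 over the 26 and -0.41 over the 23.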

How the data were processed

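Raw counts per gene and FPKM were deposited by the authors for 58735 genes in 26 libraries (14658319 to 20413839 counts). Poly-A RNA was captured, per the labels' protocols. HISAT2 and hg38 were used for alignment, per the submitters' processing notes. For the counting tool, its strand setting and all upstream versions, nothing was given in the sources used here. FPKM deposited by the authors were used to compare levels between genes and in the limma alternatives, and counts for every other test.

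Tests used edgeR 4.0.16 under R 4.3.3, with TMM scaling, the default low-count filter by group (at least 10 counts, total at least 15) and robust quasi-likelihood fits. P-values were adjusted by Benjamini-Hochberg over all genes tested, and a gene was called below 0.05. A first fit held the 23 glucose libraries (16338 genes), and a second the not polarized and WT normal glucose libraries (16105 genes). CPM use TMM-adjusted library sizes. SE is the fold change over the square root of edgeR's F, and intervals are 95% from it. They cover the spread between libraries of these groups.

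Alternatives were DESeq2 1.42.0, RLE factors, no or a stricter filter (1 CPM in 5 libraries, 3 for not polarized), limma 3.58.1 on log2 FPKM plus 1 or 0.1, other libraries in the fit, a replicate block, a term for library numbers 1 to 3 against 4 to 6, each set alone, and each library left out. The test of the difference between the sets was added after the data were seen. The scripts were checked on simulated counts. Promoter sequences are from RefSeq on GRCh38.p14.

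The members, the 6 other gene lists and the cell type markers were chosen with earlier results of these data known. All members, TXNIP and HK2 were always named. Of other lists up to 3 called genes per comparison were named, lowest adjusted p first, and for likeness the 3 protein-coding genes with the highest r. One gene that this rule took is not reported here.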

Additional observations from a re-analysis of the deposited data

Results flagged for a closer look

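SLC2A13 in CF cells in normal glucose had 1 library far from the rest: library 3 stood at 0.893 CPM (15 counts), and its gap to the next library was 0.671 of the range of the 6 libraries. Of 28 sets of libraries (7 members in 4 groups) this was the 1 set that met Dixon's criterion at 95%, and chance meets it in about 1 in 20. SLC2A13 was not called in any comparison with or without this library.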

How the results depend on the processing

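SLC2A1 and SLC2A3 kept their glucose calls in both lines, and SLC2A3 and SLC2A10 their calls between the lines, under every alternative run. The library sets moved the counts most: with libraries 1 to 3 alone 5 members were called for glucose in CF cells (3 over all libraries), beside 1349 of all 15979 genes, and 2 between the lines in normal glucose (4 over all), beside 3650 genes. With libraries 4 to 6 alone 1 member was called for the difference of responses (0 over all), beside 387 of 16874 genes. A term for the sets added SLC2A12 for glucose in WT, SLC2A8 for glucose in CF and SLC2A8 between the lines in high glucose, and took no member's call away. Log2 values turned in sign, none of them past the threshold, with libraries 1 to 3 alone for the difference of responses (SLC2A1 0.045, SLC2A6 0.25, SLC2A12 0.11, SLC2A13 0.14) and for CF against WT in normal glucose (SLC2A1 -0.023, SLC2A12 -0.12, SLC2A13 -0.18). They turned with libraries 4 to 6 alone for glucose in CF cells (SLC2A6 -0.17, SLC2A12 -0.033, SLC2A13 -0.28) and for CF against WT in high glucose (SLC2A13 0.062). The cause was not tested. With each library left out in turn, SLC2A6 ranged from -0.0315 to 0.10 for glucose in CF cells and from -0.11 to 0.022 for the difference of responses, and SLC2A13 from -0.10 to 0.16 for glucose in CF cells, -0.12 to 0.10 for CF against WT in high glucose and -0.19 to 0.0039 for not polarized cells. Library numbers were not taken as pairs, since libraries of the same number correlated about as much as others of the same set. With group means taken out, mean r over genes for glucose in WT and CF was 0.24 and 0.26 at the same number. It was 0.22 and 0.24 at other numbers of the same set, and -0.23 and -0.25 between the sets. The values between the sets mirror those within them by construction, because deviations from a group mean cancel out. The reported fit held no term for the sets. A replicate block by number gave 4 members called for glucose in WT (3 without it, SLC2A12 gained at an adjusted p of 0.031), and 3, 0, 4, 3 and 6 in the other comparisons, as without it. Over all genes, calls for glucose in WT were 484 as reported, 780 with DESeq2, 319 with no filter, 1092 with the block, 1418 with the set term, 823 with libraries 4 to 6 alone and 281 to 465 with a library left out. In CF cells they were 1374 as reported, 891 with no filter, 2561 with the block, 2812 with the set term and 2330 with libraries 4 to 6 alone. For the difference of responses they were 6 as reported, 62 with DESeq2, 73 with the block, 146 with the set term, 1 and 387 with libraries 1 to 3 and 4 to 6 alone, and 0 to 19 with a library left out, and between the lines in high glucose 3253 as reported and 4973 with the set term. In the not polarized comparison the median log2 value over all genes was -0.024 as reported and -0.13 with DESeq2, which tested more genes. At 15 to 52 counts per library, depth limits SLC2A13.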
